A study of Mus musculus with 6 samples.

Results

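The genes described here are the nuclear-encoded subunits of oxidative phosphorylation, taken from the deposited tables by name: Nduf genes of the a, b, c, s and v series, Sdha to Sdhd, names beginning with Uqcr, Cox4 to Cox8 genes, and names beginning with Atp5. The rule found 85 of 22558 gene names, and none of the 87 entries that carry several names held one of them. By role, 35 belong to complex I, 4 to complex II, 8 to complex III, 20 to complex IV and 15 to complex V. Ndufa4 and Ndufa4l2 were counted with complex IV, with which the NDUFA4 protein is found. The remaining 3 match the rule by name and are no structural subunits: Cox4nb, Atp5s and Atp5sl.

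Messenger RNA was measured in 6 cultures of mouse pluripotent cells, with 1 library per culture and 1 line per condition. Embryonic stem cells (ESC) of strain 129Sv, derived from embryos, were either H2A.X Cre KO, in which the gene of the histone variant H2A.X is deleted, or H2A.X Flox Flox, its counterpart with recombination sites around the gene. Induced pluripotent stem cells (iPSC) of a 129Sv/C57 mix were derived from fibroblasts of the peritoneum (PF) or of the tail tip (TTF), and 1 line of each source was labelled 4N+ and 1 was labelled 4N-. The labels do not spell out 4N; outside them it is known as the result of tetraploid complementation, which asks whether a line can build an embryo in a tetraploid host. They give no H2A.X genotype for the iPSC beyond the name H2A.X. All 6 cultures were at passage 25, were kept on feeder cells with LIF, and were moved to gelatin shortly before lysis.

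Oxidative phosphorylation takes place at the inner mitochondrial membrane. Complexes I and II pass electrons from NADH and succinate to ubiquinone, complex III passes them to cytochrome c, and complex IV, cytochrome c oxidase, reduces oxygen. Complexes I, III and IV pump protons, and complex V, the ATP synthase, uses the gradient to make ATP. A small set of core subunits comes from mitochondrial DNA, whereas all others, including those described here, are imported. Naive mouse pluripotent cells are known to respire and to use glycolysis, and NRF1, GABPA, YY1 and ERR factors are known regulators of these genes.

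Promoter sequence is shown for 6 members that carry the differences described further on: Cox6b2, Ndufa11 and Cox6a1 were higher in the knockout ESC, Atp5k was lower there, and Uqcr10, lower in the 4N- line of the PF pair, was with Uqcr11 among the highest ratios of the TTF pair. RefSeq windows of 300 bases (250 before and 50 after a start, build GRCm38.p6) were at hand for 69 of the 85 members. Each line gives bases just before the start, 5′ to 3′ on the gene's strand, and capitals mark words searched for on both strands.
Cox6b2: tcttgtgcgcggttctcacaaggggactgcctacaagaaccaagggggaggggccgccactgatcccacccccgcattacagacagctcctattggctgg
Ndufa11: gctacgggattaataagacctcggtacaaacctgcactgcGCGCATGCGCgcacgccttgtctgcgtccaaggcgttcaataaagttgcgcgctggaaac
Cox6a1: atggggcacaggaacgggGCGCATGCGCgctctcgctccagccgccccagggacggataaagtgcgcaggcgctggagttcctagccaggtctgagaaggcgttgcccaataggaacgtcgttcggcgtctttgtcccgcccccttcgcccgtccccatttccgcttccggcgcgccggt
Atp5k: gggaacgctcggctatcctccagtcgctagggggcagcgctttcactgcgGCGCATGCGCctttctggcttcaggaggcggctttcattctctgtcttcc
Uqcr10: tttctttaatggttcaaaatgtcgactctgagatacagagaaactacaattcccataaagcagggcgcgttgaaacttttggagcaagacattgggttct
Uqcr11: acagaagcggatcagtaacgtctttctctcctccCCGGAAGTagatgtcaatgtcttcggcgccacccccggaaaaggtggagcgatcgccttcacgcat
The stretches lie at chr7:4753095-4753194 (minus strand), chr17:56717662-56717761 (plus strand), chr5:115348959-115349138 (minus strand), chr5:108434400-108434499 (minus strand), chr11:4704345-4704444 (minus strand) and chr10:80406822-80406921 (minus strand), in that order.

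The word GCATGCGC, the centre of the NRF1 motif, was in the windows of 10 of the 69 members (14.5%) and of 3.05% of the 27025 genes with a window. In Ndufa11, Cox6a1 and Atp5k it is matched on both strands by overlapping letters, so that 10 bases are in capitals. The YY1 word AAGATGGCG was in 8 members (11.6%, against 1.64% of all genes), the GABPA word CCGGAAGT in 5 (7.25%, against 4.31%), the ERR word TCAAGGTCA in 2 (2.90%, against 0.466%) and the SP1 word GGGGCGGGG in 12 (17.4%, against 12.9%). The same NRF1 word stood before Ndufa11 and Cox6a1, which were higher in the knockout ESC, and before Atp5k, which was lower. A match describes letters in this window and is not a site of binding.

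The cells expressed pluripotency genes as labelled, and the knockout ESC also had trophoblast genes, described with its results. Over 7 pluripotency genes the summed level was 1421 to 2748 FPKM (fragments per kilobase of transcript and unit of library depth), lowest in the knockout ESC, and over 8 fibroblast and feeder genes it was 2.14 to 18.2 FPKM, highest in the 4N+ PF line. H2afx, which encodes H2A.X, had 6.18 FPKM in the knockout ESC, 34.9 FPKM in the Flox Flox ESC and 65.3 to 75.2 FPKM in the iPSC, so its message was lower in the knockout library but still present; which part of the gene was deleted is not given in the labels. An effective depth of 38183374 to 60552031 fragments was read from olfactory and vomeronasal receptor genes, so that 1 FPKM on a transcript of 500 nt stood for 12 to 18.5 fragments.

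Nearly all subunits of the common complexes were among the well expressed genes. The median member stood at 57.5 to 86.8 FPKM across the 6 libraries. Atp5b, the catalytic beta subunit of the ATP synthase, was the highest member in every library, at 604 FPKM in the knockout ESC, 738 FPKM in the Flox Flox ESC, 886 FPKM (4N-) and 939 FPKM (4N+) in the PF pair, and 916 FPKM (4N-) and 896 FPKM (4N+) in the TTF pair. Cox4i1, the common form of cytochrome oxidase subunit 4, ranged from 317 to 555 FPKM. The highest member of complex I was Ndufa3, a small accessory subunit, at 230 to 328 FPKM, and that of complex III was Uqcrh, the hinge protein that binds cytochrome c1, at 248 to 342 FPKM. Complex II subunits were closer to each other, from 53.3 FPKM (Sdhb, the iron-sulfur subunit) to 130 FPKM (Sdhd, a membrane anchor).

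**Figure D1:**
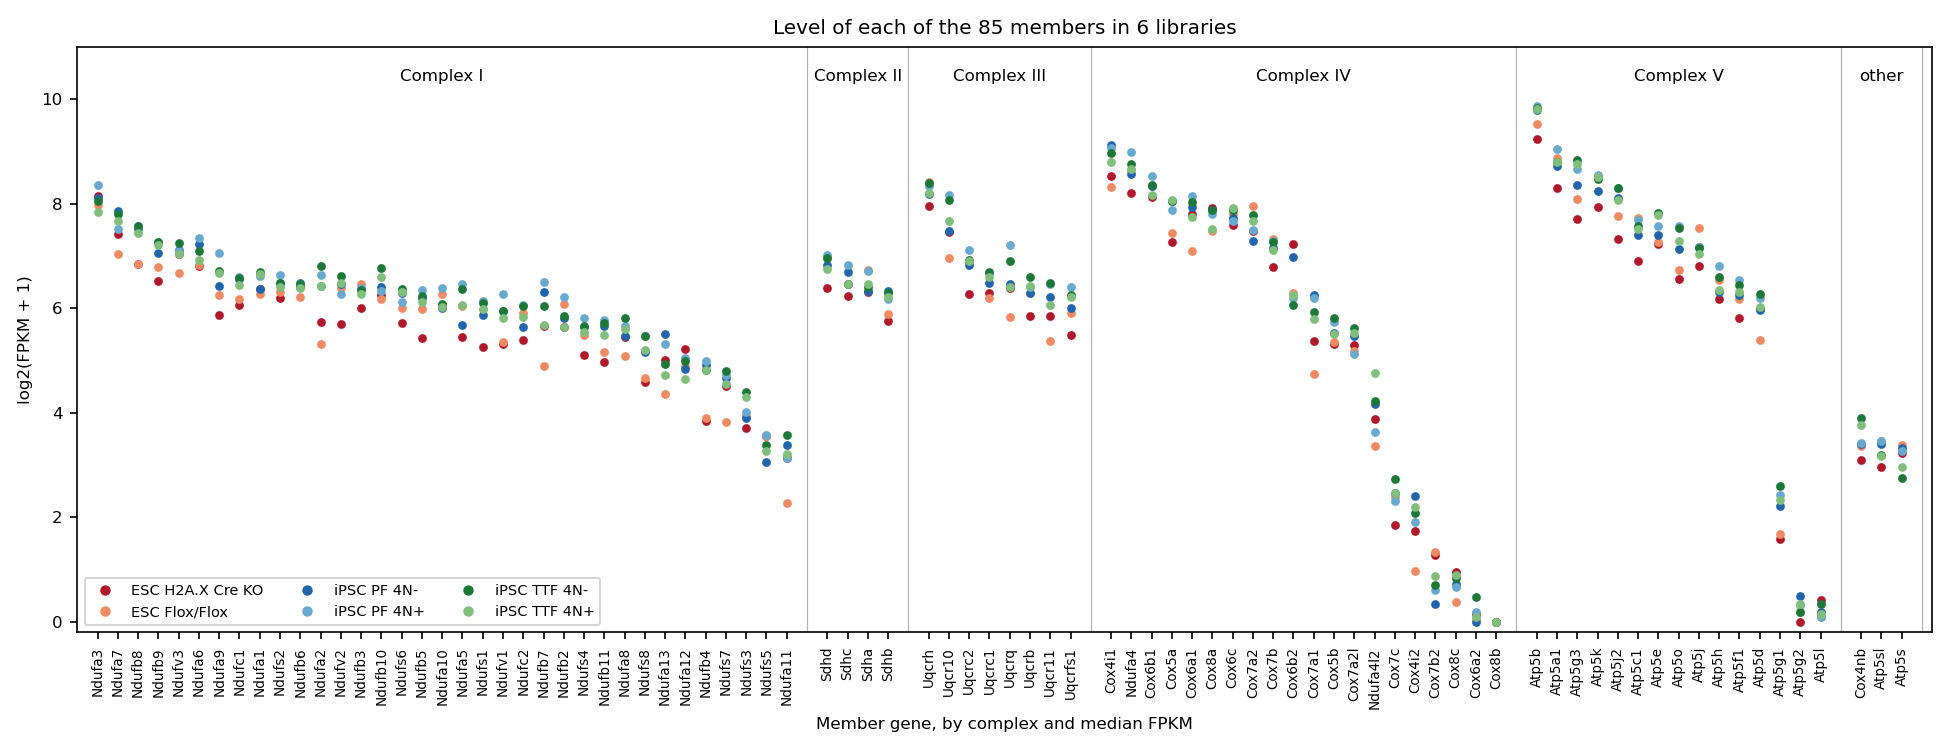
Level of each member on the log2(FPKM + 1) scale, grouped by complex and ordered by median, with 1 point per library and colours for the 6 libraries. Most subunits sit within a narrow band across libraries, and tissue isoforms such as Cox8b and Cox6a2 sit at the floor in every library.

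Members near 0 were of 2 kinds. The muscle isoforms Cox6a2 and Cox8b and the testis isoform Cox8c stayed under 1 FPKM in all 6 libraries, and Cox8b was listed at 0 in each; 6 genes of cardiac and skeletal muscle summed to at most 1.96 FPKM. Atp5l, the g subunit of the ATP synthase, and Atp5g2, one of 3 genes for the c subunit, also stayed under 1 FPKM although each is part of the common enzyme. Cox7c, a small subunit of cytochrome oxidase, stood at 2.61 to 5.67 FPKM. These 3 have annotated genes nearly identical to their transcript (95% identity or more over at least 50% of its length): 9 for Atp5l, 2 for Atp5g2 and 1 for Cox7c. The treatment of reads that match several genes is not given in the sources used here, so the levels of these genes, and of the other 8 members with such a copy (Atp5h, Uqcrb, Atp5c1, Atp5k, Atp5o, Ndufb11, Ndufs3 and Ndufs6), are uncertain. Of the c subunit genes, Atp5g3 had the highest listed values, at 209 to 455 FPKM, beside 2.0 to 5.04 FPKM for Atp5g1. For Atp5g1 the copy search used a transcript of 4715 nt, so a copy of its form of 596 nt could not count. Its level, and with Atp5g2 the balance of the c subunit genes, is therefore uncertain too.

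Ratios were formed within each deposited table as differences of log2(FPKM + 1), which understate changes of low genes. A gene was measured where at least 1 library of the table reached 1 FPKM, and was counted as higher or lower past 1.5-fold. With 1 library per condition no ratio has a replicate check, so no p-value is attached to it.

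In the knockout ESC the members lay on both sides of the Flox Flox ESC: 4 genes each of complexes I and IV and 1 of the ATP synthase were higher past 1.5-fold, and 3 of the ATP synthase, 2 of complex I and 1 of complex III were lower. Of 80 measured members 9 were higher past 1.5-fold and 6 were lower, where 17.8% of all measured genes were higher and 15.9% were lower, more than among the members in both directions. A ratio above 0 was found for 28 of the 80, where the background was 48.3%. The median of the members was −0.17 on the log2 scale, against −0.030 for all measured genes. Genes at 20 FPKM or more in both ESC libraries had a median of −0.33, with 4.42% higher and 29.7% lower past 1.5-fold, and the 66 members among them had a median of −0.19, with 7.58% higher and 9.09% lower. Well expressed genes lay below 0 as a group in this table. Genes with at least 5 FPKM had a median of −0.20, and relative to it 15 members were higher, 1 was lower (Atp5c1), 44 were above 0 (background 61.8%) and the median member was at 0.039. Relative to genes of like level 22 members were higher, 1 was lower (Cox7c), 58 of 80 were above 0 and the median was 0.22, so the direction of the group depends on the reference. The shares of all genes past 1.5-fold were not computed for either reference.

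By complex, the median ratio was −0.061 over 35 subunits of complex I, −0.32 over 4 of complex II, −0.16 over 8 of complex III, −0.038 over 17 measured genes of complex IV and −0.37 over 13 of complex V. The last value is close to the −0.33 of all genes at 20 FPKM or more. The ATP synthase had 1 member above 0, the delta subunit Atp5d of the F1 central stalk, at 62.4 FPKM in the knockout and 40.8 FPKM in the Flox Flox ESC (log2 ratio 0.60). Its other 12 measured genes were below 0. Atp5c1, the gamma subunit that turns inside the catalytic head, had the lowest ratio of all members, at 119 FPKM against 211 FPKM (−0.83). Atp5j, coupling factor 6 of the peripheral stalk, was at 111 FPKM against 185 FPKM (−0.74), and Atp5k, the membrane subunit e, at 243 FPKM against 372 FPKM (−0.61). The delta and gamma subunits, both of the central stalk, thus lay on opposite sides of 0. Against genes of like level, Atp5c1 stood at −0.32, Atp5j at −0.24, Atp5k at −0.11 and Atp5d at 1.03.

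Complex I had 4 of 35 genes higher (11.4%) and 2 lower (5.71%), less than the shares of all genes. On the higher side, Ndufa11, a membrane-arm accessory subunit, stood at 7.85 FPKM in the knockout and 3.85 FPKM in the Flox Flox ESC (0.87). Ndufb7, an accessory subunit on the intermembrane side, was at 49.9 FPKM against 28.7 FPKM (0.78), and Ndufs7, a core subunit that carries an iron-sulfur cluster near the quinone site, at 22.0 FPKM against 13.2 FPKM (0.69). Ndufa13, also known as GRIM-19, was at 31.2 FPKM against 19.6 FPKM (0.64). On the lower side were 2 core iron-sulfur subunits of the NADH-oxidising arm, Ndufs1 at 37.3 FPKM against 62.5 FPKM (−0.73) and Ndufv2 at 50.9 FPKM against 82.8 FPKM (−0.69); relative to genes of like level they stood at −0.30 and −0.26. In complex III, Uqcrc2, a core protein of the matrix side, was at 75.9 FPKM against 118 FPKM (−0.63, and −0.13 relative to genes of like level). The small subunits lay on both sides of 0 without passing 1.5-fold: Uqcrq (82.8 against 56.2 FPKM, 0.55), Uqcr10 (175 against 124 FPKM, 0.49) and Uqcr11 (56.7 against 40.5 FPKM, 0.47) were above it, and Uqcrh (248 against 342 FPKM, −0.46) and Uqcrb (57.0 against 77.1 FPKM, −0.43) were below it.

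**Figure D2:**
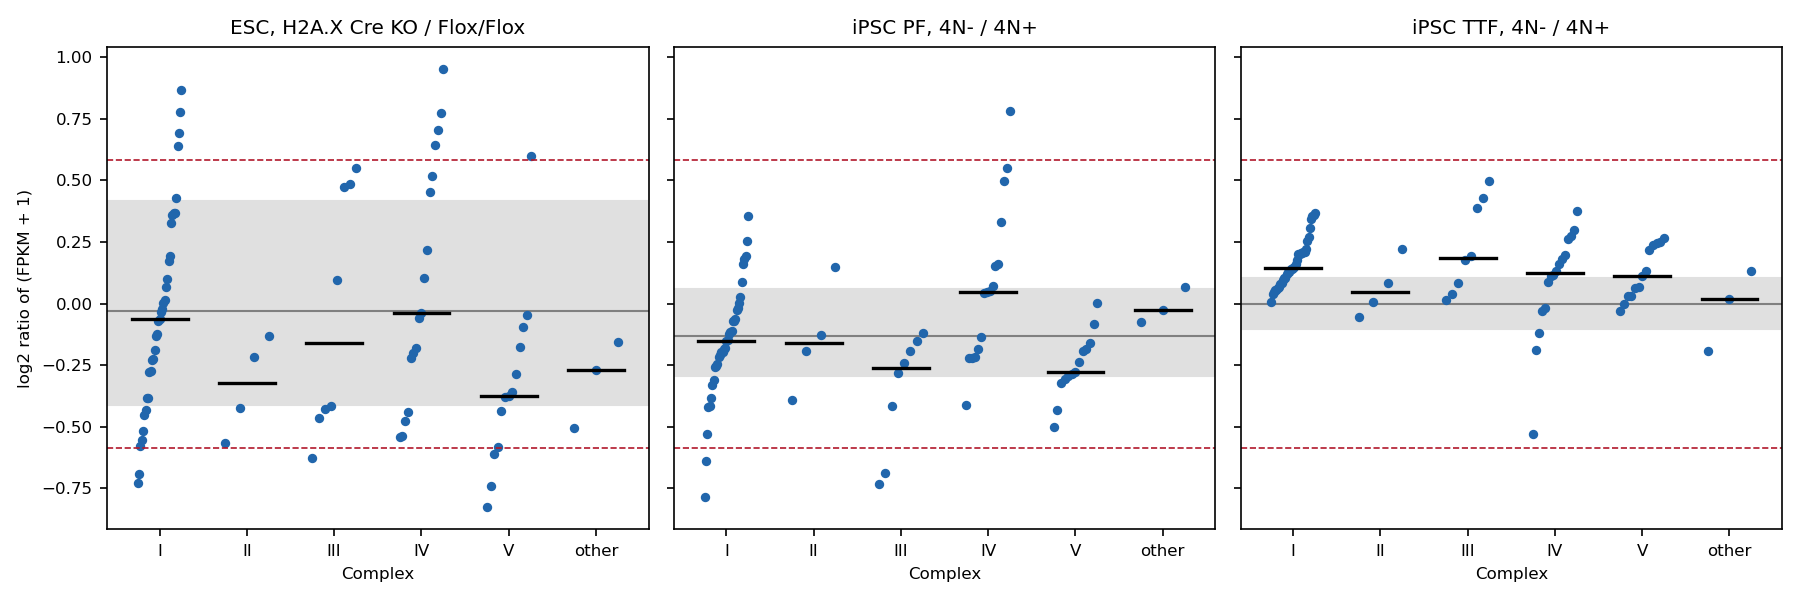
Log2 ratio of (FPKM + 1) of every measured member in the 3 within-table comparisons, by complex, with black bars at the median of each complex, a grey line and band at the median and middle 50% of all measured genes, and dashed lines at 1.5-fold. In the knockout ESC 12 of 13 points of complex V lie below 0, with a median of −0.37 beside −0.33 for all genes at 20 FPKM or more, and in the TTF pair all points of complexes I and III lie above 0.

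In cytochrome oxidase 4 of 17 measured genes were higher past 1.5-fold in the knockout ESC (23.5%, beside 17.8% of all genes), and 3 of them are tissue isoforms. Cox6b2, the testis isoform of subunit 6B, was at 150 FPKM in the knockout and 77.0 FPKM in the Flox Flox ESC (0.95, 1.94-fold), the highest ratio among the members. Cox4i2, the lung and hypoxia isoform of subunit 4, was at 2.35 FPKM against 0.959 FPKM (0.77), and Cox7a1, the heart and muscle isoform of subunit 7A, at 40.7 FPKM against 25.7 FPKM (0.64). The fourth, Cox6a1, is the common form of subunit 6A and was at 222 FPKM against 136 FPKM (0.71). No member of complex IV was lower past 1.5-fold.

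The ESC ratios ran with the base composition of the transcripts. Over the 80 members Spearman's rho between the ratio and the GC content of the transcript was 0.62 (Pearson's r 0.62), and over 11955 measured genes with a transcript it was 0.46; these are correlations across genes of 1 pair of libraries, which share their preparation and depth. The 27 members with a GC content up to 49.1% had a median ratio of −0.42, and the 27 from 54.2% upward one of 0.37. All 9 members higher past 1.5-fold had a GC content of 54.7% or more. Relative to genes of like GC content 2 members were higher past 1.5-fold, Cox6b2 (0.74) and Uqcrq (0.61), and 4 were lower, Atp5j (−0.95), Atp5k (−0.73), Atp5c1 (−0.64) and Atp5sl (−0.63). Ndufa11 then stood at 0.49, Ndufb7 at 0.34, Cox6a1 at 0.27, Ndufs7 at 0.26, Ndufa13 at 0.19 and Atp5d at 0.17, with Cox4i2 at 0.48 and Cox7a1 at 0.47. On the lower side Ndufs1 stood at −0.49, Uqcrc2 at −0.28 and Ndufv2 at −0.25, so that these 3 also no longer passed 1.5-fold. How many of all genes passed 1.5-fold on this reference was not computed, so the member counts have no background here. The part of GC content in the ratios was not tested.

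**Figure D3:**
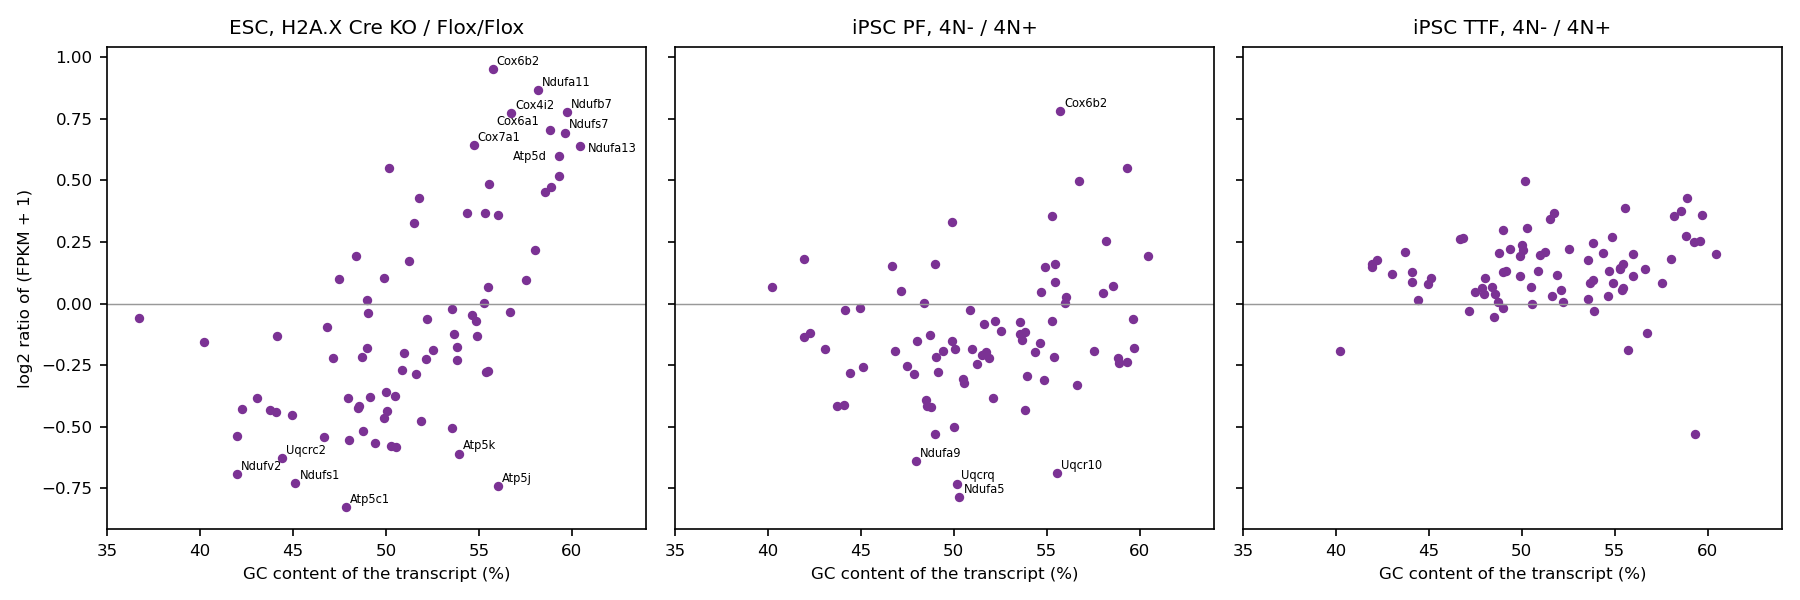
Log2 ratio of (FPKM + 1) of each measured member against the GC content of its transcript in the 3 comparisons, with names at members past 1.5-fold. In the ESC pair the points rise from lower left to upper right (rho 0.62 over 80 members), and in the iPSC pairs the slope is weaker (rho 0.24 and 0.22 over 79 members each).

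The knockout culture also differed in cell markers. Past 1.5-fold, 4 of 7 pluripotency genes were lower in it and all 5 measured trophoblast genes were higher. The 7 trophoblast genes summed to 889 FPKM in the knockout ESC, 34.9 FPKM in the Flox Flox ESC and 19.7 to 54.3 FPKM in the iPSC, chiefly through the keratin genes Krt18 (659 FPKM against 26.7 FPKM) and Krt8 (188 FPKM against 6.80 FPKM). Of the trophoblast transcription factors, Hand1 stood at 34.0 against 0.829 FPKM, Gata2 at 5.54 against 0.284 FPKM, Gata3 at 1.64 against 0.133 FPKM, Cdx2 at 0.765 against 0.0930 FPKM and Elf5 at 0.0382 against 0.0200 FPKM. In a bulk sample, a change in the share of a cell type and a change in RNA per cell cannot be told apart. Genes of extraembryonic endoderm summed to 49.9 FPKM against 5.29 FPKM, chiefly Col4a1 (45.0 against 3.33 FPKM). The 8 fibroblast and feeder genes summed to 7.10 FPKM against 2.14 FPKM. The 2 measured among them, Thy1 (4.9 against 1.55 FPKM) and Fbn1 (1.39 against 0.335 FPKM), were higher past 1.5-fold. The part of these cells in the ratios of the members was not tested.

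Around the complexes, several genes of mitochondrial upkeep and import were lower in the knockout ESC, where 15.9% of all measured genes and 29.7% of those at 20 FPKM or more were lower. Of 11 genes for the upkeep and transcription of mitochondrial DNA 5 were lower past 1.5-fold (45.5%) and 1 was higher: Tfam, which packages mitochondrial DNA and starts its transcription, was at 14.3 FPKM against 28.6 FPKM, Ssbp1, the single-strand binding protein, at 24.0 FPKM against 50.3 FPKM, and Mterfd1, Tfb1m and Peo1 were the others, whereas Polg, the polymerase, was at 14.4 FPKM against 6.97 FPKM. Of 17 carriers, porins and import genes 7 were lower (41.2%) and none higher, led by the chaperonin Hspd1 at 47.5 FPKM against 156 FPKM and with Tomm70a, Vdac3, Slc25a5, Hspa9, Tomm22 and Vdac1. Among 17 genes of the TCA cycle and pyruvate dehydrogenase 4 were lower (23.5%: Pdha1, Suclg2, Pdhb and Sucla2) and Idh2 was higher, at 56.6 FPKM against 34.9 FPKM. Of the 8 measured transcription regulators Gabpa was lower (17.2 against 32.6 FPKM) and Esrra was higher (3.24 against 1.78 FPKM). Ndufab1 and Ndufaf4 were lower among 10 further complex I and assembly genes, Lrpprc among 11 measured complex IV assembly genes, and no gene passed 1.5-fold in the lists for complexes II, III and V. No test was made of the difference between these lists and the subunits.

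In the PF pair the 4N- line was slightly below the 4N+ line for most members, as for most genes. Of 79 measured members 1 was higher past 1.5-fold and 4 were lower, where 1.98% of all measured genes were higher and 4.85% were lower. A ratio above 0 was found for 21 of the 79, against 31.5% of all genes, and the median was −0.18, against −0.13 for all genes. The centre of genes at 5 FPKM or more lay at −0.17; relative to it 3 members were higher, 1 was lower (Ndufa5), 39 of 79 were above 0 (background 55.7%) and the median was −0.013. Shares of all genes past 1.5-fold were not computed for this centre. Complex IV stood apart from this direction, with 10 of its 16 measured genes above 0 and a median of 0.048, whereas 12 of 13 genes of complex V and all 8 of complex III were below 0, with medians of −0.28 and −0.26. Complex I had a median of −0.15 and complex II one of −0.16.

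The 4 lower members were 2 accessory subunits of complex I and 2 small subunits of complex III. Ndufa5, of the matrix arm, was at 50.5 FPKM (4N-) against 87.8 FPKM (4N+) (−0.78; chr6:24468666-24477687 in mm9). Ndufa9, at the junction of the arms, was at 85 FPKM against 133 FPKM (−0.64; chr6:126771881-126799162). Uqcrq was at 87.8 FPKM against 146 FPKM (−0.73; chr11:53242450-53244333), and Uqcr10, whose promoter is printed above, was at 178 FPKM against 288 FPKM (−0.69; chr11:4601971-4604347). All 4 had higher values in the 4N- than in the 4N+ line of the TTF pair. The 1 higher member was Cox6b2, at 126 FPKM against 72.7 FPKM (0.78, 1.72-fold; chr7:4703396-4704696), which lay in the other direction in the TTF pair, at 66.1 FPKM against 75.4 FPKM.

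Those 4 members lie on chromosomes where genes in general had low ratios in this pair. The median of all measured genes was −0.37 on chromosome 11 (999 genes) and −0.37 on chromosome 6, 0.24 on chromosome 17, and −0.19 to −0.0023 on the others. The 4 members on chromosome 11 had a median of −0.59 and the 4 on chromosome 6 one of −0.53, all 8 below 0. All 6 members on chromosome 17 were above 0, with a median of 0.22: Cox7a2l, Ndufa7, Ndufa11, Ndufb10, Ndufv2 and Ndufv3. Pearson's r between a member's ratio and its chromosome's median was 0.59 over 79 members, which share the 2 libraries. Relative to the median of the same chromosome no member was lower past 1.5-fold and 3 were higher, Cox6b2 (0.89), Ndufa4l2 (0.66) and Cox4i2 (0.63), and Ndufa5 stood at −0.41, Uqcrq at −0.36, Uqcr10 at −0.31 and Ndufa9 at −0.27. Set against genes of like level they stood at −0.55, −0.53, −0.49 and −0.44, again within 1.5-fold. For neither reference were the shares of all genes past 1.5-fold computed, so these counts have no background. The part of chromosome-wide differences in these ratios was not tested, and DNA copy number was not analysed here.

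**Figure D4:**
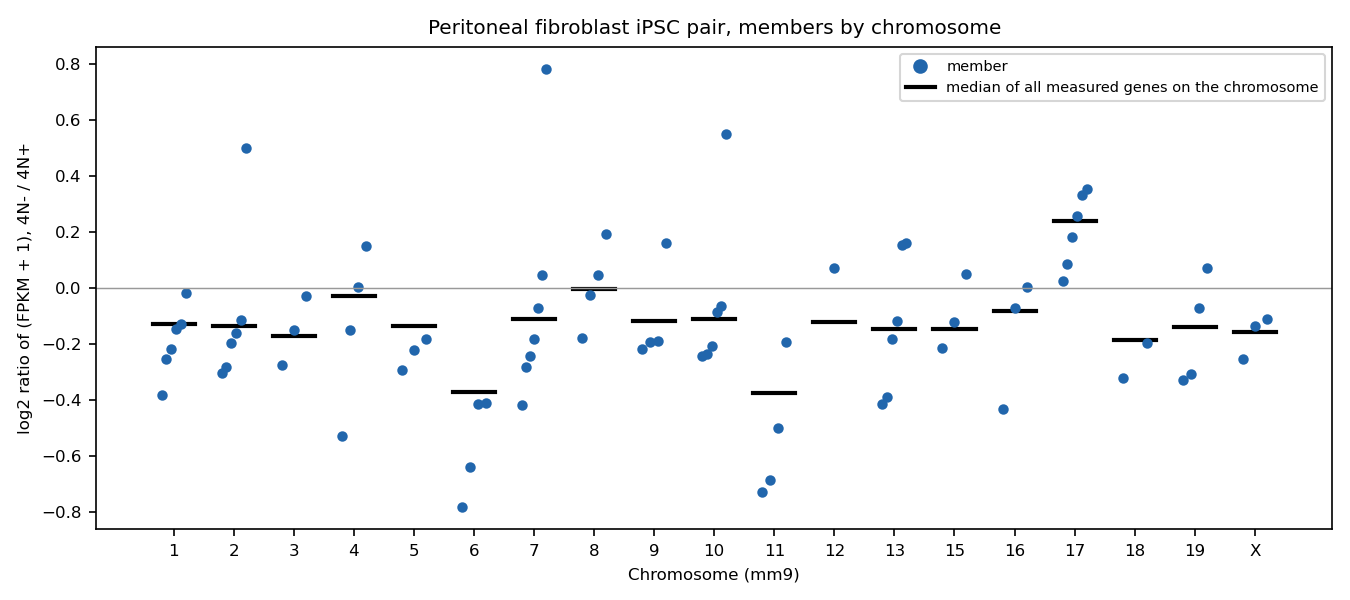
Log2 ratio of (FPKM + 1), 4N- over 4N+, of the measured members in the PF pair by chromosome, with bars at the median of all measured genes of each chromosome. Members on chromosomes 6 and 11 lie low and those on chromosome 17 lie above 0, as the bars there do.

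Around the complexes, some genes passed 1.5-fold in the PF pair, where 1.98% of all measured genes were higher and 4.85% were lower. In the TCA cycle and pyruvate dehydrogenase list of 17 genes Pdha1, the E1 alpha subunit, was higher (5.88%), at 151 FPKM against 92.9 FPKM. Ogdh and Suclg1 were lower (11.8%). Slc25a4, an ADP/ATP carrier, and the prohibitin Phb2 were lower among 17 carriers, porins and import genes (11.8%), and Cox10 and Taco1 among 11 measured complex IV assembly genes (18.2%). The difference between these short lists and all genes was not tested. The fibroblast and feeder genes, whose sum was 5.63 FPKM (4N-) and 18.2 FPKM (4N+), were led by Thy1, at 4.66 and 7.49 FPKM, and by Col1a2, at 0.0228 and 5.40 FPKM. Their part in the member ratios was not tested.

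In the TTF pair 70 of 79 measured members lay above 0, by small amounts. No member passed 1.5-fold of the 79 measured, where 0.828% of all measured genes were higher and 0.907% were lower. The share above 0 was 50.1% among all genes, and the members' median was 0.13, against 0.0005. Relative to the centre of genes at 5 FPKM or more, at 0.012, 68 of 79 were above 0 (background 47.1%). Among genes at 20 FPKM or more in both lines 61.2% were above 0 (median 0.037), and among members at that level 63 of 69 (median 0.14). All 35 members of complex I and all 8 of complex III were above 0, with medians of 0.15 and 0.18. Complexes II, IV and V had 3 of 4, 11 of 16 and 11 of 13 above 0.

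The highest TTF ratios belonged to 3 small subunits of complex III. Uqcrq was at 120 FPKM (4N-) against 84.4 FPKM (4N+), a log2 ratio of 0.50, Uqcr11 at 88.7 against 65.7 FPKM (0.43) and Uqcr10 at 268 against 204 FPKM (0.39). The larger complex III subunits stood near 0, with Uqcrc2 at 121 against 120 FPKM (0.013) and Uqcrfs1, the Rieske iron-sulfur protein, at 75.7 against 73.6 FPKM (0.04). The lowest were Ndufa4l2, the hypoxia-induced relative of Ndufa4, at 17.8 against 26.1 FPKM (−0.53), Atp5s, which is no structural subunit, at 5.78 against 6.76 FPKM (−0.19), and Cox6b2 (−0.19). No gene of the lists around the complexes passed 1.5-fold in this pair.

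Short transcripts had higher ratios in the TTF pair, and most members are short. The median transcript length of the measured members was 875 nt, against 2882 nt for all measured genes with a transcript, and Spearman's rho between ratio and length was −0.32 over 11232 genes. Relative to genes of like length the members' median was 0.058 and 54 of 79 were above 0; relative to genes of like GC content it was 0.13 with 69 above 0, and relative to genes of like level 0.086 with 59 above 0. The part of transcript length in the ratios was not tested. Markers of trophoblast and extraembryonic endoderm also stood higher in the 4N- line. The 8 fibroblast and feeder genes did not, with a sum of 3.82 FPKM (4N-) against 3.93 FPKM (4N+) and Thy1, the 1 measured, at −0.10. The 7 trophoblast genes summed to 54.3 FPKM (4N-) against 39.0 FPKM (4N+), with Krt8, Krt18 and Hand1, the 3 measured, at log2 ratios of 0.48, 0.44 and 0.33. Genes of extraembryonic endoderm summed to 17.3 against 13.6 FPKM, with Dab2 past 1.5-fold (0.62), Gata4 at 0.30 and Col4a1 at 0.11, while Elf5 and Cdx2 stayed at or under 0.101 FPKM and Afp at or under 0.00898 FPKM. Their part in the member ratios was not tested.

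Set side by side, the 2 iPSC pairs had opposite directions for most members on the deposited scale, but not relative to genes of like level. Lower in the 4N- line of the PF pair and higher in that of the TTF pair were 55 of 79 members (69.6%), against 35.8% of the 10975 genes measured in both. Another 15 members were higher in both 4N- lines, 3 were lower in both and 6 were higher in the PF pair and lower in the TTF pair. Of the 10975 genes, 1515 were higher in both, 3676 were lower in both and 1819 were higher in the PF pair and lower in the TTF pair. With each pair centred on genes at 5 FPKM or more the 55 became 37 (46.8%, background 23%). Then 31 members were higher in both, as were 2602 of the 10975 genes. With genes of like level as the reference, 20 members (25.3%) were lower in the PF and higher in the TTF pair, and 39 were higher in both. No share over all genes was computed for that reference. Uqcrq, Uqcr10 and Ndufa5 had the largest swings among members past 1.5-fold, from −0.73 to 0.50, from −0.69 to 0.39 and from −0.78 to 0.31. The difference between the pairs was not tested, since each has 1 library per label.

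Over both iPSC pairs together no member was called. A limma fit on log2(FPKM + 1) of the 4 libraries, with the parental cells (which is also the table) as a block and 1 residual degree of freedom, called 14 of 11985 genes at a Benjamini-Hochberg adjusted p below 0.05 (0.117%), and 0 of 79 members. None of the members had an unadjusted limma p below 0.05. Ndufa11 had the lowest p in that fit, with a log2 difference of 0.31 (SE 0.15), higher in 2 of 2 pairs, a limma p of 0.0704 and an adjusted p of 0.999. This gene lies on chromosome 17, and its PF ratio of 0.26 was 0.017 relative to the median of that chromosome. The test was moderated, so the spread behind each p-value was drawn in part from all genes of these 4 libraries. The labels name 4 lines and do not say how independent they are, so these p-values do not measure a spread between independent lines. With so few degrees of freedom a p above the threshold does not show that the members did not differ.

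The authors' deposited tables, which hold their own test of each library pair, called none of the members either. They called 210 genes in the ESC table, 75 in the PF table and 43 in the TTF table (1.44%, 0.537% and 0.301% of those tested). The lowest deposited p-value of a member was 0.0834 in the ESC table (Atp5g2), 0.0188 in the PF table (Uqcr10) and 0.0132 in the TTF table (Uqcrq), and 0, 5 and 3 members of the authors' deposited tables had an unadjusted p below 0.05. These tests compare 2 libraries, not conditions. Approximate 95% binomial intervals on fragments excluded a ratio of 0 for 66 of 80 members in the ESC, 62 of 79 in the PF and 57 of 79 in the TTF pair. They cover counting error only, and some that excluded 0 were wide beside the ratio, as for Ndufb3 in the TTF pair (0.0029 to 0.16).

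The balance within isoform pairs differed between libraries, on the scale of the FPKM summed over an isoform and its common partner. Cox6b2 made up 34.8% of Cox6b1 and Cox6b2 in the knockout ESC and 19.3% in the Flox Flox ESC, 28.0% (4N-) and 16.5% (4N+) in the PF pair, and 16.7% (4N-) and 20.9% (4N+) in the TTF pair. The common partner Cox6b1 stood at 281 and 323 FPKM in the ESC, 324 and 368 FPKM in the PF and 329 and 286 FPKM in the TTF lines. The testis form was thus a substantial part of subunit 6B messages in all 6 libraries, and highest in the knockout ESC and the 4N- PF line.

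Of Cox7a1 and Cox7a2 together, Cox7a1 made up 18.6% (knockout) and 9.38% (Flox Flox) in the ESC pair, 32.6% (4N-) and 28.7% (4N+) in the PF pair, and 21.5% (4N-) and 21.2% (4N+) in the TTF pair. Its share was lower in both ESC than in any iPSC line, and a scaling factor of a library cancels in such a share. The ESC and iPSC differ in strain, in origin and in table, which cannot be told apart here. Ndufa4l2 was 4.48% and 2.28% of Ndufa4 and Ndufa4l2 in the ESC, 4.30% and 2.19% in the PF and 3.97% and 6.07% in the TTF lines. The ESC log2 ratios of Ndufa4l2 and Ndufa4 were 0.52 and −0.44, but 0.086 and −0.092 relative to genes of like GC content. On that reference Cox6b2 and Cox6b1 stood at 0.74 and −0.15, and Cox7a1 and Cox7a2 at 0.47 and −0.49. The part of GC content in the shares was not tested. Cox4i2 stayed below 1% of subunit 4 messages, Cox8c below 1% of subunit 8 and Cox6a2 below 1% of subunit 6A messages in every library. The supercomplex factor Cox7a2l stood at 34.0 to 48.6 FPKM, and Cox7b2, a germline form of subunit 7B, at 0.266 to 1.54 FPKM beside 110 to 160 FPKM for Cox7b.

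**Figure D5:**
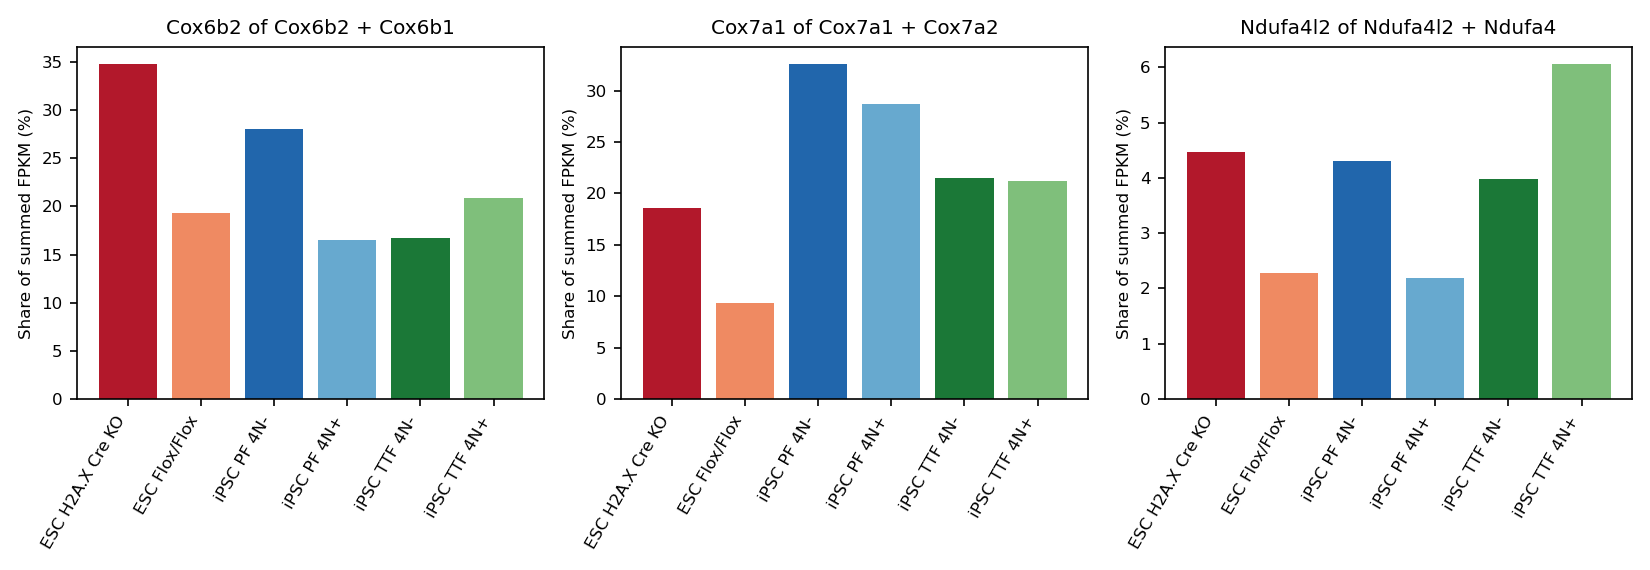
Share of the summed FPKM of an isoform and its common partner that belongs to Cox6b2, Cox7a1 and Ndufa4l2, in percent, with 1 bar per library and no error bars because each condition has 1 library. The Cox6b2 bars of the knockout ESC (34.8%) and the 4N- PF line (28.0%) stand above those of the other 4 libraries.

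The 3 genes that match by name but are no subunits had low levels. Cox4nb, now known as a subunit of a membrane protein insertion complex of the endoplasmic reticulum, was at 7.56 to 13.9 FPKM. Atp5s, known as a distant relative of coupling factors, was at 5.78 to 9.44 FPKM, and Atp5sl, now known as a complex I assembly factor, at 6.78 to 10.1 FPKM. None of these passed 1.5-fold in any table.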

How the data were processed

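Reads went through CASAVA and TopHat2 on mm9, per the submitters' processing notes; the quantifier, annotation, strand use and versions were not given in the sources used here. The authors deposited 3 tables of 2 libraries each. Their library values were taken as FPKM from their range and totals, and their p-values, q-values and calls are named per the file headers; the deposited log2 fold change entered no result. Ratios were recomputed as log2(FPKM + 1) within a table, since tables may have been scaled separately. Read totals were not used here; approximate fragments came from GENCODE vM21 transcript lengths and the receptor genes, whose values came within 0.05 of whole numbers (the divisor was fitted to them). GC content and length are those of the longest top-ranked GENCODE transcript of a gene (85 of 85 members, 97.8% of all names). Copies of that transcript were sought with BLAST+ 2.17.0, and like genes were 20 bins. The approximate fragments used the shortest top-ranked form instead. For some members the forms differ widely, as for Uqcrq (1521 against 405 nt) and Ndufb2 (4371 against 455 nt). Copies of a much shorter form could be missed. limma 3.58.1 in R 4.3.3 was tested on simulated data. Members and lists were chosen with earlier results of these data known. Named are all members past 1.5-fold, the 3 highest and lowest ratios per table, the highest and lowest levels per complex, and the isoform pairs. Alternatives were a pseudocount of 0.1, minimum levels, centring, 2-fold, no block and each iPSC library left out (without the block); those on GC content, length, level, chromosome and small RNA genes were chosen after seeing the data.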

Additional observations from a re-analysis of the deposited data

Results flagged for a closer look

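The iPSC pairs differed in direction for 55 members, which were lower in the 4N- line of the PF pair and higher in the 4N- line of the TTF pair, on the deposited scale. With both pairs centred this held for 37 members, and relative to genes of like level for 20. Among all genes measured in both pairs the share was 35.8% on the deposited scale and 23% with both pairs centred. Among members past 1.5-fold in a pair, 5 lay on opposite sides of 0. The log2 ratios in the PF and TTF pairs were −0.64 and 0.037 for Ndufa9, −0.78 and 0.31 for Ndufa5, −0.69 and 0.39 for Uqcr10, −0.73 and 0.50 for Uqcrq, and 0.78 and −0.19 for Cox6b2. With 1 library per label and pair, these differences between the pairs were not tested.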

How the results depend on the processing

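All 15 named ESC members and all 5 named PF members had the same sign in every alternative that gave a value (Cox4i2 has none at a minimum of 5 FPKM), but their sizes moved. These members were chosen for passing 1.5-fold in the main setting. Changing the minimum level, or leaving out the non-subunits or chromosome 17, leaves a gene's own ratio as it was and could not change a sign. Relative to genes of like level all 6 lower ESC members and all 4 lower PF members were within 1.5-fold, between −0.55 and −0.11, and so was Cox4i2 at 0.45. Counts and medians near 0 depended on the reference level, and the cause was not tested. Shares of all genes past 1.5-fold were computed in the main setting only. In the ESC pair, centring gave 15 higher, 1 lower, 44 above 0 and a median of 0.039; genes of like level as the reference gave 22 higher, 1 lower, 58 above 0 and a median of 0.22; genes of like GC content gave 2 higher; at 2-fold 0 were higher and 0 lower. In the PF pair, a pseudocount of 0.1 gave 3 higher, centring gave 3 higher, 1 lower, 39 above 0 and a median of −0.013, and at 2-fold 0 were higher and 0 lower. There, references of like GC content gave 2 higher, 33 above 0 and a median of −0.034, like length 2 higher, 2 lower, 33 above 0 and −0.044, like level 2 higher, 0 lower, 49 above 0 and 0.039, and the same chromosome 3 higher, 0 lower, 32 above 0 and −0.044. Members lower in the PF and higher in the TTF pair, 55, became 37 with both pairs centred and 20 with references of like level. In the TTF pair like GC content and like length each gave 1 lower, Ndufa4l2.

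With no replicate block for the parental cells, limma called 0 members and 3 of 11985 genes. Leaving out 1 iPSC library at a time, the fit also had no block, so fibroblast source and table were mixed with the 4N label. The lone sample was then assumed to vary like the others. The members' median log2 difference, 4N- against 4N+, was −0.093 to 0.088 in these fits. With all 4 iPSC libraries, the block and small RNA genes left out, limma called 92 genes. With a minimum of 5 FPKM it called 67 and with no minimum 0. Members called stayed at 0, with 0 to 2 at an unadjusted limma p below 0.05. One library per condition is the main limit: no ratio within a table has a replicate.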
